A study of Mus musculus with 6 samples.

Results

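The genes described here are synaptopodin, its 2 relatives and 7 genes that link the actin filaments of podocyte foot processes to each other or to the membrane: Synpo, Synpo2, Synpo2l, Actn1, Actn4, Inf2, Myo1e, Ezr, Clic5 and Anln. They were chosen by name, 10 of the 53715 genes in the deposited table, with earlier results of this same comparison known, so their fold changes and calls are a description and not an independent test. The cells came from an immortalized podocyte line of the mouse. It was expanded at 33 °C in 10% fetal bovine serum plus interferon gamma, then left to differentiate for 10 to 14 days at 37 °C in 5% serum, on type I collagen (12 mg/ml). The labels give the genotype of 3 libraries as WT, from cells transfected with a scrambled siRNA, and that of the other 3 as TFEB knockdown, from cells transfected with an siRNA against Tfeb. Every library therefore comes from 1 line of transfected cells in culture, and the titles number the replicates without saying whether they were separate cultures. The p-values thus reflect the spread between these samples alone, which may be technical.

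Podocytes wrap the capillaries of the glomerulus with interdigitating foot processes, whose shape is held by bundles and cortical networks of actin. Synaptopodin and the alpha-actinins bundle and crosslink those filaments, the formin INF2 elongates and severs them, the class I myosin MYO1E moves along them at the membrane, and ezrin and CLIC5 tie them to membrane proteins such as podocalyxin. Mutations of ACTN4, INF2, MYO1E and ANLN are known causes of inherited nephrotic disease in people. TFEB is a transcription factor best known for activating lysosome and autophagy genes.

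Values are FPKM, here fragments for each kilobase of gene, scaled between libraries by a median-ratio size factor and not by total reads. Levels can thus be compared between genes as well as between libraries. A gene was tested when its mean over the 6 libraries was 1 FPKM or more, and it counted as higher or lower when the adjusted p was below 0.05 in a limma fit on log2(FPKM + 0.5) over all 12257 such genes; every adjusted p below is from limma over all genes of a fit. Tfeb itself stood at 1.80, 2.05 and 2.27 FPKM in the scrambled libraries, in order of replicate number, against 0.639, 0.714 and 0.822 FPKM in those given the Tfeb siRNA. The 6 libraries held 18062898 to 20610888 derived reads. Of 12 podocyte markers outside the 10 genes, 6 had a mean of 1 FPKM or more in the scrambled group (Podxl, Cd2ap, Nes, Kirrel and Tjp1 among them), while the slit diaphragm gene Nphs1 had 0.232 ± 0.0356 FPKM (SD, n = 3) and Tcf21 was listed at 0 in each scrambled library. The summed podocyte markers lay between 304 and 307 FPKM in the scrambled and between 310 and 320 FPKM in the Tfeb siRNA libraries. In bulk RNA such as this, fewer cells that express a gene and less of its RNA per cell cannot be told apart.

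Of the 10 genes, 8 passed the filter and 2, Synpo2 and Clic5, did not. After Tfeb siRNA, 2 of the 8 tested genes were higher (Myo1e and Ezr), 3 were lower (Synpo, Synpo2l and Actn1) and 3 did not pass the test (Actn4, Inf2 and Anln), where 33.3% of all tested genes were called, 16.9% higher and 16.4% lower. The 3 genes of the synaptopodin family all had lower values in each library given the Tfeb siRNA. For 6 of the 8 tested genes the libraries of the groups did not overlap, against 48.7% of all tested genes. Because these genes were chosen with this comparison known, nothing is read from either count.

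**Figure D1:**
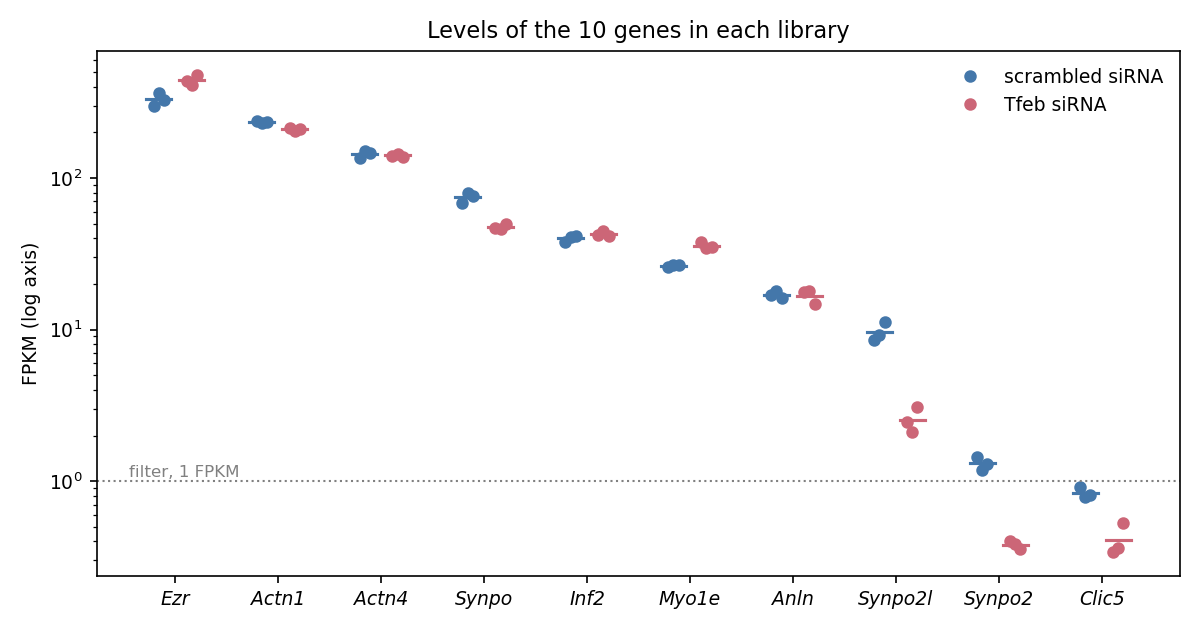
Level of each gene in FPKM on a log axis, in the order of the scrambled group's mean. Points are libraries, bars are group means (n = 3), and the dotted line is the filter at 1 FPKM. Ezr lies highest, at 298 to 480 FPKM, and Synpo2 and Clic5 lie near or below 1 FPKM in every library.

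The 10 transcripts spanned a wide range of levels. In the scrambled group the order of mean level was Ezr (329 FPKM), Actn1 (234), Actn4 (143), Synpo (74.4), Inf2 (40.1), Myo1e (26.4), Anln (17.0), Synpo2l (9.68), Synpo2 (1.31) and Clic5 (0.838 FPKM), and no neighbours in that order overlapped in their library ranges. Ezr ranked 85 and Actn1 148 of the 12257 tested genes by mean level in that group, whereas Synpo2l ranked 5352. The order was the same in the Tfeb siRNA group except at its end, where Clic5 (0.411 FPKM) and Synpo2 (0.382 FPKM) changed places and overlapped.

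Synaptopodin, the proline-rich actin bundling protein that marks differentiated foot processes (Synpo, ENSMUSG00000043079, mm10 chromosome 18, 60593973 to 60660142, minus strand), was by far the most abundant member of its family. The scrambled libraries, here and below in order of replicate number, held 68.6, 79.1 and 75.5 FPKM, against 46.8, 46.2 and 49.7 FPKM after Tfeb siRNA. The groups were far apart, with the highest Tfeb siRNA library well below the lowest scrambled one. The mean fell from 74.4 ± 5.35 to 47.6 ± 1.85 FPKM, a 1.56-fold decrease (log2 fold change -0.64, SE 0.07, limma adjusted p = 0.000876). It rested on 44276 scrambled and 26077 Tfeb siRNA reads. The gene has long and short transcript forms, 12 annotated in GENCODE M21, and the deposited table holds 1 value per gene, so which form was lower was not analysed here.

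Synaptopodin 2-like (Synpo2l, ENSMUSG00000039376, chromosome 14, 20658946 to 20668354, minus strand), a relative best known from the Z-discs of heart and skeletal muscle, showed the largest fold decrease of the 8 tested genes. Its values were 8.60, 9.25 and 11.2 FPKM in the scrambled libraries and 2.46, 2.10 and 3.07 FPKM in the Tfeb siRNA libraries. Every Tfeb siRNA value was less than every scrambled value, and replicate 3 was the highest of its group in both. On 2797 scrambled and 676 Tfeb siRNA reads, the log2 change came to -1.74 (SE 0.14, limma adjusted p = 0.00038). Counted from the lowest, this change ranked 9 of 12257 tested genes. Over the alternatives it ran from -1.94 to -1.59 and its call did not change.

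Synpo2, also called myopodin or fesselin, an actin bundling protein of smooth and striated muscle (ENSMUSG00000050315, chromosome 3, 123076519 to 123236149, minus strand), was scarce. The scrambled libraries held 396, 321 and 356 reads, or 1.45, 1.18 and 1.30 FPKM, and the Tfeb siRNA libraries 95, 103 and 90 reads, or 0.403, 0.387 and 0.355 FPKM. The ranges were widely separated and the spread within the Tfeb siRNA group was small. The ratio of the means was 3.43, scrambled over Tfeb siRNA (1.31 ± 0.133 against 0.382 ± 0.0248 FPKM). The gene was below the filter, since its mean over all libraries was under 1 FPKM. In the fit with no filter on low values, where 11.8% of 29171 genes were called (5.51% higher and 6.32% lower), Synpo2 had a log2 change of -1.03 (SE 0.13, limma adjusted p = 0.00694); the pseudocount of 0.5 shrinks a change at this level.

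The family as a whole summed to 78.6, 89.6 and 87.96 FPKM in the scrambled and 49.7, 48.7 and 53.1 FPKM in the Tfeb siRNA libraries. Within that sum synaptopodin made up 87.1% ± 1.27 of the scrambled and 94.2% ± 0.673 of the Tfeb siRNA level. The share was higher in each Tfeb siRNA library, since the 2 minor relatives had a larger fold decrease than Synpo. The ratio of Synpo2l to Synpo was 0.130 ± 0.0161 with the scrambled siRNA against 0.0533 ± 0.00823 with the Tfeb siRNA. Transcripts that define striated muscle were near 0 in all libraries. Of 13 such markers none reached a mean of 1 FPKM in the scrambled group, their sum was 1.61 to 2.31 FPKM there and 2.15 to 2.51 FPKM after Tfeb siRNA, and Myh1, Myh2 and Tnnc2 were listed at 0 throughout. Among 6 mesangial and smooth muscle markers, Acta2 did not pass the test, at 1514 ± 57.7 and 1412 ± 10.8 FPKM (adjusted p = 0.276), whereas Cnn1, the smooth muscle calponin, rose from 3.35 ± 0.510 to 6.09 ± 0.447 FPKM (adjusted p = 0.00262). Des and Myh11, desmin and smooth muscle myosin, were below the filter, with 1.42 ± 0.209 against 0.503 ± 0.0824 FPKM and 0.253 ± 0.124 against 0.0783 ± 0.0212 FPKM. The sum of those 6 was 1499 to 1613 FPKM in the scrambled and 1438 to 1462 FPKM in the Tfeb siRNA libraries. Acta2 made up most of that sum, which therefore says little of the other markers. None of the 6 was listed at 0 in every library. The part of smooth muscle-type expression in the fall of Synpo2 and Synpo2l was not tested.

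**Figure D2:**
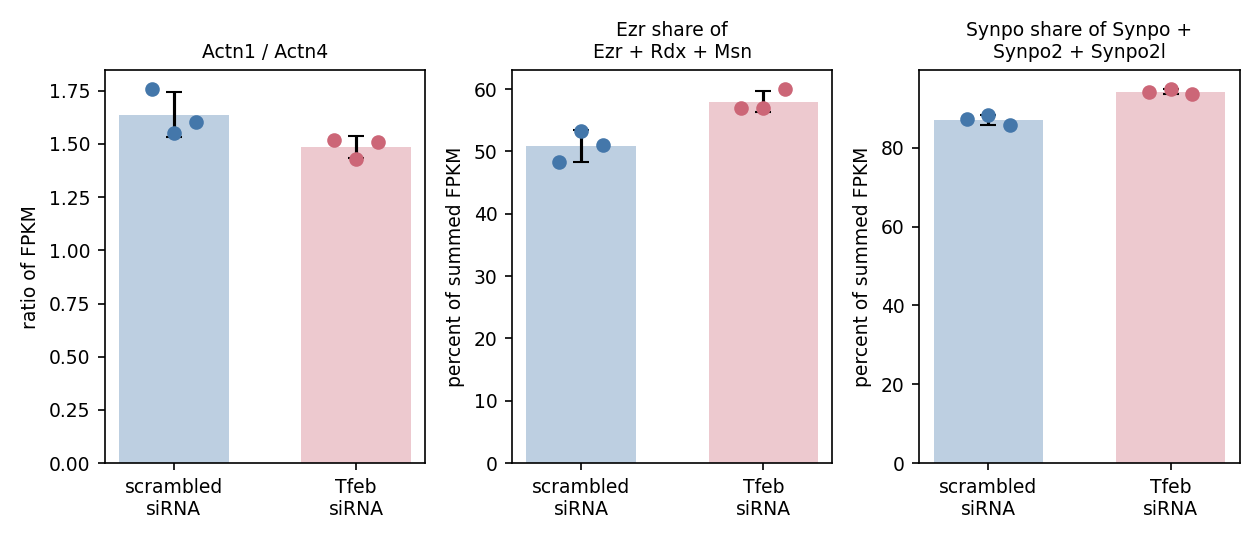
Ratios computed within each library: Actn1 over Actn4, and the share of Ezr among ezrin, radixin and moesin and of Synpo among the synaptopodin family, both in percent of summed FPKM. Bars are means from 0, points are libraries and error bars are SD (n = 3). The Tfeb siRNA libraries are lower in the first ratio and higher in both shares.

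The start regions of the 2 relatives of synaptopodin are shown because these transcripts had the largest fold decreases. The sequences are RefSeq windows of GRCm38.p6 (mm10), from 250 bases before to 50 bases after a transcript start, 5′ to 3′ on the gene's strand; RefSeq gives Synpo2l 2 starts. They were searched on both strands for the CArG box, the serum response factor motif, exactly and with 1 mismatch, and for the TEAD motif GGAATG. Capitals mark a match.
Synpo2, chr3:123236100-123236399: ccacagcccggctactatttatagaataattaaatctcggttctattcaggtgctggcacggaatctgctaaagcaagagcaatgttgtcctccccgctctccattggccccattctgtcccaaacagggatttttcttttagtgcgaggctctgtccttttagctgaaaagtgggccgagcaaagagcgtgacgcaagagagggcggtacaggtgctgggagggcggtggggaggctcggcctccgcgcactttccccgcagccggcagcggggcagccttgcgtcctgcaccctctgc
Synpo2l, upstream start, chr14:20668305-20668604: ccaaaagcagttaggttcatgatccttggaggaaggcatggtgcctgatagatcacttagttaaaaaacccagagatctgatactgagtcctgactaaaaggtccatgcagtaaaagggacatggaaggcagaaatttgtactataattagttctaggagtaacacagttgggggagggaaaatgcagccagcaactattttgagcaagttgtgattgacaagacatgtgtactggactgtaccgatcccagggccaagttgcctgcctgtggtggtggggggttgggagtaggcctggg
Synpo2l, downstream start, chr14:20664525-20664824: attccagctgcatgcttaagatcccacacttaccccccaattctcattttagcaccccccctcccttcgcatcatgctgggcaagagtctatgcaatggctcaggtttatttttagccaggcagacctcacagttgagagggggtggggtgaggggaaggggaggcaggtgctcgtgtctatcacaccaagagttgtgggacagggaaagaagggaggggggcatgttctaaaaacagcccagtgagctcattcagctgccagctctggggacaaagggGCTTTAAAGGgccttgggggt

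These windows hold 0 exact CArG boxes and 0 copies of GGAATG, and the downstream start of Synpo2l holds 1 CArG box with 1 mismatch, which starts 29 bases after the transcript start. Of all 32851 RefSeq windows of this length, 1.63% hold an exact CArG box, 21.1% one with at most 1 mismatch and 14.7% the word GGAATG. The palindrome CACGTG, the core of the site that TFEB binds, is in 7.15% of all windows and in neither relative's. Among the other genes searched, the windows of Anln and Inf2 hold CACGTG, and those of Inf2 and Actn4 hold GGAATG. These are letters in a short window and say nothing of what binds there.

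Among the profiles of 10533 other tested protein-coding genes over the 6 libraries, each centred on its own mean in log2(FPKM + 0.5), those nearest to Synpo were Etv5, Fam81a and Meiob, at Euclidean distances of 0.0738, 0.0828 and 0.0847. Etv5, an ETS transcription factor, stood at 6.38 ± 0.404 and 3.87 ± 0.135 FPKM. The profiles nearest to Synpo2l were Hist2h3c2, a histone H3 gene, Papss2, which makes the sulfate donor PAPS, and Cyp4a12a, a fatty acid hydroxylase, at distances of 0.303, 0.329 and 0.375. With 3 libraries in each group, such a distance mostly reflects the size of the group difference, and it is given as a description.

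The alpha-actinins are rod-shaped crosslinkers of antiparallel actin filaments. Actn1 (ENSMUSG00000015143, chromosome 12, 80167547 to 80260371, minus strand) was measured at 237, 232 and 233 FPKM in the scrambled and at 213, 205 and 209 FPKM in the Tfeb siRNA libraries. All 3 Tfeb siRNA libraries were lower, but the difference was small. The means were 234 ± 2.63 and 209 ± 4.10 FPKM (log2 fold change -0.16, SE 0.05, limma adjusted p = 0.0361). The call was lost without any of the 6 libraries in turn (adjusted p up to 0.106, without scrambled siRNA replicate 3) and with no filter on low values (0.115). Actn4, the form mutated in inherited focal segmental glomerulosclerosis (ENSMUSG00000054808, chromosome 7, 28893248 to 28962340, minus strand), did not differ beyond the spread between libraries. It had 135, 149 and 146 FPKM in the scrambled and 140, 143 and 138 FPKM in the Tfeb siRNA libraries (log2 fold change -0.03, SE 0.06, limma adjusted p = 0.764). The ratio of Actn1 to Actn4 was 1.76, 1.55 and 1.60 in the scrambled and 1.52, 1.43 and 1.51 in the Tfeb siRNA libraries, lower in each of the latter by a narrow margin. The muscle forms Actn2 and Actn3 were scarce, with 5 and 28 scrambled reads against 0 and 30 after Tfeb siRNA.

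Of the 5520 words of 50 bases in the Actn1 transcripts, 16 recur in Actn4. The exons of Actn1 overlap those of the antisense transcripts Gm47766 and Gm47767 by 363 and 88 bases, and the exons of Actn4 overlap 316 bases of Capn12 on the opposite strand. Whether the counting used strand is not stated in the sources. The overlapping genes were low, with 0.958 ± 0.197 FPKM for Gm47766, 2.48 ± 1.19 for Gm47767 and 0.104 ± 0.0678 for Capn12 in the scrambled group.

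Myo1e and Ezr, both at the interface of actin and membrane, were the genes called higher. Myosin 1e, a motor with a long tail that binds membrane lipids (ENSMUSG00000032220, chromosome 9, 70207350 to 70399766, plus strand), stood at 25.8, 26.7 and 26.6 FPKM in the scrambled and at 37.7, 34.4 and 35.2 FPKM in the Tfeb siRNA libraries. The scrambled values were nearly equal and all lay below the Tfeb siRNA values. The mean rose 1.36-fold, from 26.4 ± 0.522 to 35.8 ± 1.68 FPKM (log2 fold change 0.43, SE 0.05, limma adjusted p = 0.00142), and the call held in all 14 alternatives. Its start region is shown because it is the 1 window of these genes, Synpo not searched, that holds an exact CArG box. The box is in capitals and starts 32 bases before the transcript start, on the RefSeq window of GRCm38.p6.
Myo1e, chr9:70207100-70207399: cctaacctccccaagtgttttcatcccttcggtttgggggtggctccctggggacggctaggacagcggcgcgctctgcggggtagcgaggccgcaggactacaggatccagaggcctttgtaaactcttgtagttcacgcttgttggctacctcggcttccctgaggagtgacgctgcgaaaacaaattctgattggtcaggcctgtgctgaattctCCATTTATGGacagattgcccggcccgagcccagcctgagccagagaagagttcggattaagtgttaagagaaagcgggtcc

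Of the other class I myosins, Myo1d rose from 6.79 ± 0.727 to 10.1 ± 0.63 FPKM (limma adjusted p = 0.00373). Myo1c did not pass the test, at 107 ± 4.94 and 103 ± 3.94 FPKM (adjusted p = 0.45). Myo1f, the other long-tailed form, was nearly absent, with 22 scrambled and 17 Tfeb siRNA reads. Whether the change of Myo1c differs from that of Myo1e was not tested.

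Ezrin, which joins cortical actin to membrane proteins (ENSMUSG00000052397, chromosome 17, 6738041 to 6782784, minus strand), had 298, 363 and 326 FPKM in the scrambled and 438, 411 and 480 FPKM in the Tfeb siRNA libraries. The groups were apart, although the spread within each was wider than for Myo1e. The mean rose 1.35-fold, from 329 ± 32.6 to 443 ± 34.7 FPKM (log2 fold change 0.43, SE 0.09, limma adjusted p = 0.0124), and the call was lost with no filter on low values (adjusted p = 0.0581). Its relatives did not pass the test: moesin, Msn, had 275 ± 2.64 and 282 ± 9.02 FPKM (adjusted p = 0.636) and radixin, Rdx, 41.7 ± 1.42 and 38.3 ± 1.92 FPKM (0.138). Ezrin made up 48.3%, 53.3% and 51.1% of the summed ezrin, radixin and moesin level in the scrambled libraries and 57.0%, 57.0% and 60.03% in the Tfeb siRNA libraries. Of 14 tested relatives and partners of ezrin and CLIC5, 5 rose and 2 fell, while 7 missed the threshold. The share called was above the 33.3% of all tested genes, of which 16.9% were higher and 16.4% lower. Nothing particular to this short list is drawn from that. Podxl, podocalyxin, the sialoprotein that ezrin anchors, rose from 8.72 ± 0.303 to 15.8 ± 1.43 FPKM (adjusted p = 0.000597), and Slc9a3r2, the scaffold NHERF2 between them, from 6.90 ± 1.46 to 12.3 ± 1.09 FPKM (adjusted p = 0.00545). Slk, a kinase that activates these linkers, fell from 22.8 ± 0.506 to 16.4 ± 1.02 FPKM (adjusted p = 0.00168).

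Clic5, a CLIC protein that works with ezrin and podocalyxin in foot processes (ENSMUSG00000023959, chromosome 17, 44188572 to 44280168, plus strand), was the scarcest of the 10 genes in the scrambled group. Its reads numbered 112, 96 and 99 in the scrambled against 36, 43 and 60 after Tfeb siRNA, or 0.916, 0.791 and 0.807 against 0.342, 0.362 and 0.529 FPKM. All Tfeb siRNA values were below the scrambled ones. The gene lay below the filter; with no filter its log2 fold change was -0.56 (SE 0.14) and it missed the threshold (limma adjusted p = 0.0572), while it passed after rescaling to TPM, a scale on which every library has the same total (0.0276), and with voom on derived reads and no filter (0.0032). The deposited length of Clic5 is 5870 bases, whereas its exons in GENCODE M21 cover 8782, so its FPKM depends on the annotation. Of its relatives, Clic4 fell from 75.7 ± 4.90 to 65.2 ± 2.82 FPKM (adjusted p = 0.0412), a call lost without 5 of the 6 libraries in turn (adjusted p up to 0.121, without scrambled siRNA replicate 2) and kept without scrambled siRNA replicate 1. Clic1 missed the threshold, at 131 ± 8.95 and 123 ± 5.60 FPKM (0.326).

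The formin INF2 and the ring scaffold anillin were not called. Inf2 (ENSMUSG00000037679, chromosome 12, 112588784 to 112615557, plus strand) had 37.9, 41.0 and 41.4 FPKM in the scrambled and 42.2, 44.5 and 41.4 FPKM in the Tfeb siRNA libraries. The highest scrambled and the lowest Tfeb siRNA value nearly touched (log2 fold change 0.09, SE 0.06, limma adjusted p = 0.26). Among the other formins, 3 of 11 tested were higher and 0 lower, where 16.9% of all tested genes were higher and 16.4% lower. Nothing particular to formins is drawn from so short a count. Fmnl1 rose from 2.09 ± 0.216 to 3.09 ± 0.0587 FPKM, Fmnl2 from 7.995 ± 0.408 to 10.7 ± 0.268 FPKM, and Fhod1 from 14.0 ± 0.960 to 16.9 ± 0.699 FPKM (limma adjusted p = 0.00747, 0.00257 and 0.0189).

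**Figure D3:**
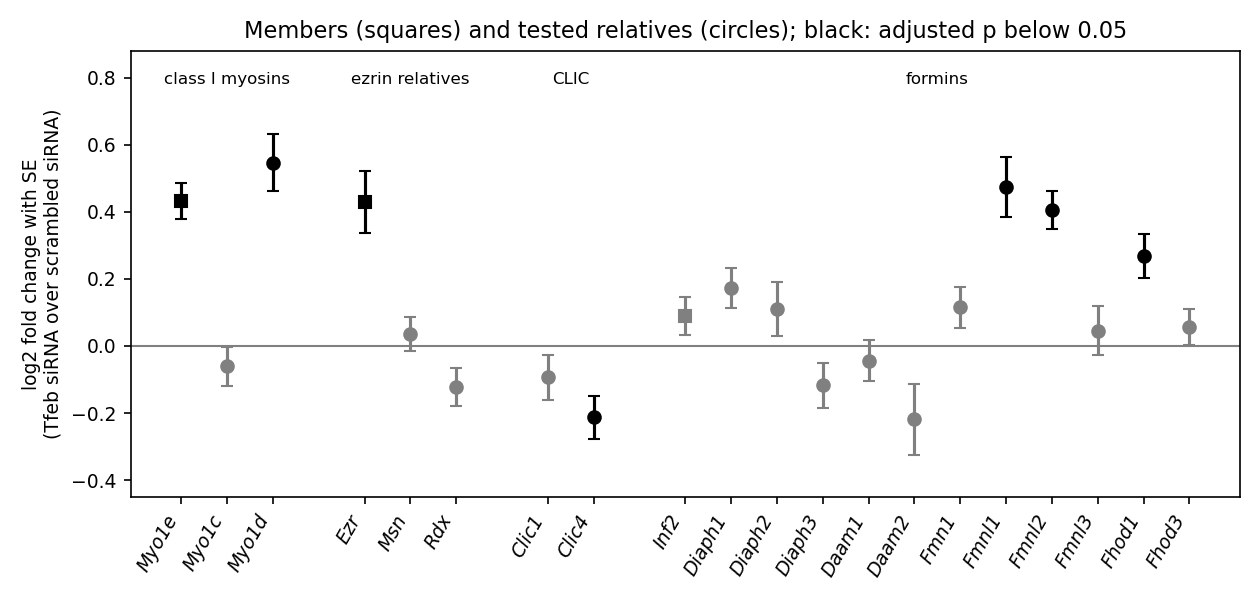
Log2 fold changes (Tfeb siRNA over scrambled siRNA, log2(FPKM + 0.5) scale) with SE for Myo1e, Ezr and Inf2 (squares) and tested relatives, and for Clic1 and Clic4 (circles). Black marks an adjusted p below 0.05. Myo1e and Myo1d lie above 0, whereas Msn and Rdx lie near 0 beside Ezr.

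Anillin, the scaffold of the cleavage furrow that also binds actin, myosin II and septins (Anln, ENSMUSG00000036777, chromosome 9, 22332012 to 22389188, minus strand), had 16.9, 18.0 and 16.1 FPKM in the scrambled and 17.6, 18.0 and 14.7 FPKM in the Tfeb siRNA libraries. The ranges overlapped (log2 fold change -0.03, SE 0.09, limma adjusted p = 0.847). Anln is transcribed in dividing cells, and proliferation markers were present in this line: all 11 listed had a mean of 1 FPKM or more in the scrambled group. Of these, 5 rose after Tfeb siRNA and 0 fell, among them Mki67, from 12.7 ± 1.02 to 16.5 ± 1.91 FPKM (adjusted p = 0.0254). The share of the 11 markers called higher was 45.5%, against 16.9% of all tested genes. Their sum was 86.3 to 99.0 FPKM in the scrambled and 102 to 124 FPKM in the Tfeb siRNA libraries, and none was at 0; their part in the values of Anln was not tested. Of 10 tested septins and other partners of anillin, 3 rose and 1 fell, 40.0% called against 33.3% of all tested genes. Sept9 rose from 8.67 ± 0.729 to 11.9 ± 0.541 FPKM and Sept7 fell from 50.02 ± 1.84 to 41.2 ± 2.42 FPKM.

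**Figure D4:**
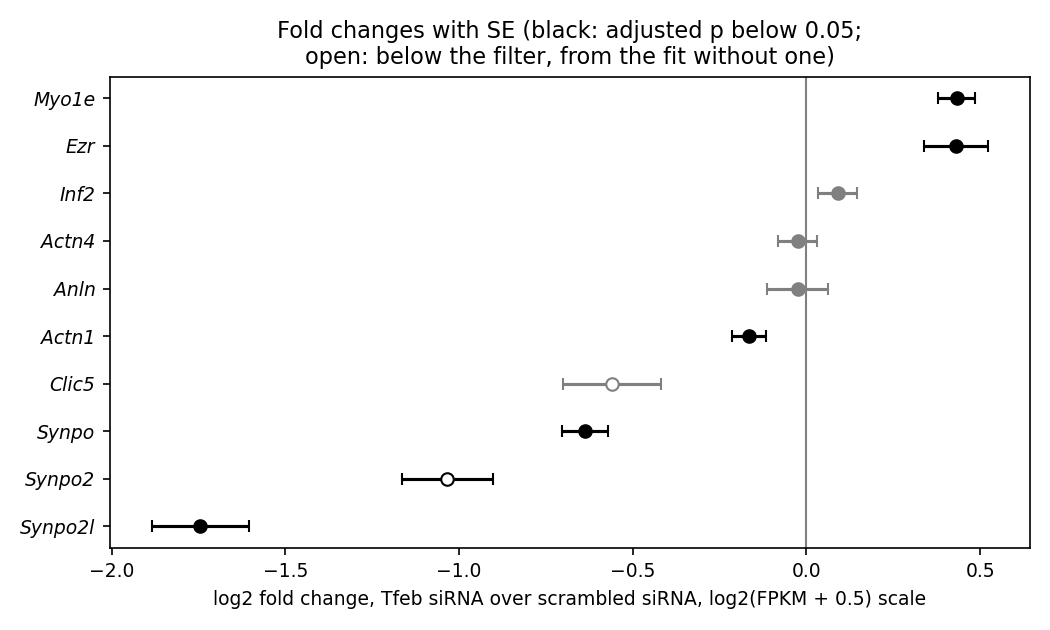
Log2 fold change of each of the 10 genes, Tfeb siRNA over scrambled siRNA on the log2(FPKM + 0.5) scale, with SE. Black marks an adjusted p below 0.05, and open circles are the genes below the filter, from the fit with no filter. Synpo2l lies farthest to the left, at -1.74, and Myo1e and Ezr lie to the right, at 0.43.

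Other genes of the actin machinery were taken from 9 lists. Joined, 126 of 147 listed genes found in the table were tested, of which 31 rose, 19 fell and 76 did not pass, 39.7% called against 33.3% of all tested genes. The median log2 fold change was 0.08, against 0.02 over all tested genes, and nothing particular to these lists is drawn from that. Of 15 tested partners of the synaptopodin family, 1 rose and 3 fell, 26.7% called against 33.3% of all tested genes. The 14-3-3 protein Ywhab, a type of protein known to bind and protect synaptopodin, rose from 77.2 ± 3.78 to 97.9 ± 4.99 FPKM. Ppp3r1, the regulatory subunit of calcineurin, which counters that protection, fell from 42.8 ± 1.24 to 35.1 ± 1.06 FPKM, and Tjp1, the junction scaffold ZO-1, from 43.5 ± 0.138 to 36.0 ± 1.88 FPKM.

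Calls among crosslinkers, nucleators and turnover factors went both ways, as over all tested genes, of which 16.9% were higher and 16.4% lower. The shares called were 40.0%, 34.6% and 33.3%, against 33.3% over all tested genes. Of 10 tested crosslinkers 3 rose and 1 fell: Pls3, the bundler plastin 3, rose 2.01-fold, from 40.5 ± 0.78 to 81.6 ± 5.20 FPKM, Sptan1, a spectrin, rose 1.27-fold, and Add1, adducin, fell from 35.4 ± 1.25 to 27.9 ± 0.795 FPKM. Of 26 tested formins and nucleators 6 rose and 3 fell. Actr2, the ARP2 subunit of the branching complex, rose from 34.7 ± 1.26 to 59.7 ± 2.01 FPKM and its activator Wasf2 from 16.7 ± 0.423 to 25.4 ± 0.212 FPKM, while the complex subunit Arpc1b fell from 32.5 ± 2.08 to 21.0 ± 0.448 FPKM and the nucleator Cobl from 48.0 ± 1.05 to 28.7 ± 1.82 FPKM. Of 24 genes of filament turnover 4 rose and 4 fell. The cofilin phosphatase Ssh1 rose from 3.44 ± 0.216 to 6.37 ± 0.459 FPKM. Cfl2, a cofilin, fell from 55.7 ± 1.09 to 41.0 ± 0.896 FPKM and Tmod3, which caps pointed ends, from 31.8 ± 1.35 to 18.5 ± 0.881 FPKM. Vasp, a filament elongation factor, rose from 37.4 ± 4.73 to 49.0 ± 2.14 FPKM, a call lost without Tfeb siRNA replicate 2 or 3 (adjusted p up to 0.0645).

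Of 12 tested myosins and kinases 3 rose and 4 fell, 58.3% called against 33.3% of all tested genes. Nothing particular to this short list is drawn from that. The kinase Mylk rose from 9.09 ± 0.745 to 13.6 ± 1.20 FPKM, whereas the light chains Myl9 (144 ± 1.92 against 107 ± 4.79 FPKM) and Myl6 (44.6 ± 3.09 against 33.8 ± 0.868 FPKM) fell. Of 5 tested actins and tropomyosins 1 rose (20.0% called), Tpm3, from 43.9 ± 1.23 to 61.5 ± 2.06 FPKM.

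As background, an siRNA strand can also lower transcripts other than its target when its seed pairs with their 3' UTR. The siRNA sequences were not used here, so 8 heptamers that stood out in an earlier ranking by these same fold changes were counted in the longest GENCODE M21 3' UTR of each gene: 4 whose holders were more often lower and 4 whose holders were more often higher. The first kind is CTACATA with the overlapping word TACATAA, and GGCCATG with the overlapping word GCCATGA. The other kind is TCGGAGA with the overlapping word CGGAGAA, and TGTCACG with the overlapping word GTCACGA. Some 33.5% of 10474 tested genes searched hold 1 or more of the first 4 and 9.36% 1 or more of the last 4. The sites in 5 of these genes are shown so that the words can be seen in their surroundings, 30 bases each in the transcript's sense, with the heptamer in capitals.
Actn1, bases 258 to 287 of the UTR: caaacaaaaaaCTACATAttttattataaa
Myo1e, bases 487 to 516: aaaccctgcacGCCATGAatgtgattggaa
Myo1e, bases 1178 to 1207: gcagatcgggaGCCATGAgcacttcaacag
Anln, bases 115 to 144: gcaaatattcaCTACATAttgtgcagtatt
Clic5, bases 4668 to 4697: cacgcctttgaCTACATAccaagtcaagtg
Synpo2, bases 5404 to 5433: tgtgagtgtttTACATAAactataatgaga
Synpo2, bases 2502 to 2531: tctaagggataTGTCACGcaaacagacaca

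CTACATA is in the 3' UTR of Actn1, Anln and Clic5, 1 copy each, where 10.6% of genes searched hold it. Of its holders 34.4% were lower, against 15.9% of the genes without it. The word was chosen by these same fold changes, so nothing is read from that difference. Of the 3 genes named, Actn1 was called lower, Clic5 had lower values and Anln overlapped between groups. Myo1e, which rose, holds 2 copies of GCCATGA. Synpo2 holds 1 word of each kind, TACATAA and TGTCACG, which 12.6% and 3.62% of genes searched hold. Synpo2l, Ezr, Actn4 and Inf2 hold 0 of the 8 words, as does Tfeb. Their 3' UTRs have 1355, 1262, 981, 634 and 605 bases, in that order. Those of Synpo2, Clic5 and Myo1e are longer, at 5799, 4791 and 4009 bases. Synpo, Anln and Actn1, which also hold a word, have 1877, 1038 and 775 bases. The counts are not adjusted for length. Synpo, which fell, holds 1 copy of CGGAGAA, a word of the other kind that 3.19% of genes searched hold. The site in Synpo is not shown. The part of these sites in the values was not tested.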

How the data were processed

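The table deposited by the authors held FPKM values for 53715 genes in 6 libraries, beside gene positions and lengths, per the file headers. Per the submitters' processing notes, positions are on mm10. The sources used here do not state the aligner, counter, annotation release or strand setting. The table left 0 sample columns unused. In each library, 100% of the values above 0, multiplied by gene length, were whole multiples of a common step (tolerance 1e-06 of the read number), which gave reads per gene; the depth divided by equalled a median-ratio size factor scaled by the mean depth (ratio 1), so the deposited values were already scaled between libraries. Read numbers cover counting error only.

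The comparison used log2(FPKM + 0.5) and limma 3.58.1 (R 4.3.3). It took in the 12257 genes whose mean reached 1 FPKM, let the variance follow the mean level, and adjusted two-sided p-values by Benjamini-Hochberg over all these genes. The script was tested on simulated data with the same spread setting for all genes and few genes changed, unlike the real data. That run therefore gives no error rate for the calls here. Fold changes on this scale understate the change of low genes. Synpo2 and Clic5, below the filter, were taken from the fit with no filter. The 10 genes and all lists were chosen with earlier results of these data known. Genes named are the 10, Tfeb, their relatives, the 3 nearest profiles of Synpo and Synpo2l, and in each actin list up to 2 called genes in each direction, of which Kif23 is given with the alternatives; cell type markers and genes whose exons overlap a member are named beside the results they touch. Same-numbered libraries of the groups had residual correlations of 0.382, 0.129 and 0.166. The replicate number was therefore a block in an alternative fit, the main fit having none. This pairing comes from the data, and only replicate 1 stood out. Scrambled siRNA replicate 3 with Tfeb siRNA replicate 2 had 0.106, and scrambled siRNA replicate 2 with Tfeb siRNA replicate 3 had 0.0996. These values do not establish that replicates 2 and 3 were paired by number. Symbols carried by more than 1 row (Magi1 and Sept2 among the lists) were not used. Some listed genes, and the results of 1 actin list, are not reported here, although the counts over joined lists include them. Start regions are from RefSeq (GRCm38.p6). Those of 9 of the 10 genes were used, and Synpo, on chromosome 18, was left out. The alternatives tried are given in the closing section.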

Additional observations from a re-analysis of the deposited data

How the results depend on the processing

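Alternatives were other pseudocounts (0.1 and 1), no filter on low values, a filter at a mean of 5 FPKM, TPM, quantile normalization, the replicate number as a block, limma voom on derived reads, and each library left out in turn. Synpo, Synpo2l and Myo1e kept direction and call in all 14 of these and Synpo2 in all 9 run for it; those that combine no filter with another choice were chosen after seeing the data. With no filter, 1 of the 10 genes was called higher instead of 2, since Ezr missed the threshold. With TPM, 5 were lower instead of 3, since Synpo2 and Clic5 passed both filter and test. The replicate block gave 4928 calls over all genes against 4080 and changed no call among the 10 genes in either direction (2 higher and 3 lower). Leaving out 1 library gave 2772 to 3404 calls over all genes, 24 to 27 higher and 15 to 19 lower among the other actin genes, and 2 higher and 2 lower of the 10 genes, Actn1 being lost each time. Genes not called changed sign: Actn4 ran from -0.068 to 0.0056 (log2, without scrambled siRNA replicate 1 and 2), and Anln from -0.079 to 0.064 (without Tfeb siRNA replicates 2 and 3), with 0.016 without scrambled siRNA replicate 2. Kif23, a kinesin of cytokinesis that rose (adjusted p = 0.0278), was no longer called when any of 4 libraries was left out (adjusted p up to 0.0804, without Tfeb siRNA replicate 2), with no filter (0.0732) and with TPM (0.0557); Clic4 (0.0857) and Vasp (0.0535) also lost theirs with no filter. The cause was not tested. The depth limits what can be said of Clic5 and Synpo2, which rest on 139 and 288 reads in the Tfeb siRNA group.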
